A study of Homo sapiens with 29 samples.

Results

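The genes described here are 39 genes of DNA replication and S phase, picked by name for their roles and followed through every group of the experiment. They were chosen with earlier results of these data known. All 39 were found among the 60675 genes listed in the count table, on 1 row each, and all 39 were among the 20494 genes that passed the filter on low counts and were tested. By role they are the licensing factors ORC1, ORC6, CDC6 and CDT1, the helicase subunits MCM2, MCM3, MCM4, MCM5, MCM6 and MCM7, and the firing factors MCM10, CDC45, GINS1, GINS2, GINS3, GINS4 and CDC7. The polymerase and primase subunits are POLA1, POLA2, PRIM1, POLD1, POLE and POLE2, and the clamp group holds PCNA, its loader RFC2, RFC3, RFC4 and RFC5, and the nuclease FEN1. The single-strand binding subunits RPA1, RPA2 and RPA3, the nucleotide enzymes RRM1, RRM2, TYMS and TK1, and the regulators CDC25A, DTL and UHRF1 complete the set.

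Polyadenylated RNA was sequenced in 29 libraries of WM239A, an established line from a metastatic melanoma, in 10 groups of 3 libraries, with 2 at week 4 under continuous drug. In 9 of the groups the cells overexpressed BRAF-V600E, the oncogenic form of a MAPK pathway kinase, and the drug was LGX818 (encorafenib), a BRAF inhibitor, at 500 nM. The intermittent arm had 7 days of drug and then 7 days of DMSO (off drug at week 2), a further 7 days of drug (rechallenged, week 3) and a further 7 days of DMSO (off drug at week 4). The continuous arm stayed on drug for 14, 21 or 28 days (weeks 2, 3 and 4), and both arms shared the cells taken after 7 days of drug (week 1). Cells were also taken after 20 hours of drug, against BRAF-V600E cells without drug and cells with the vector without drug. Every group comes from the same line, and whether the overexpressing cells were a clone, and which promoter drove BRAF, are not given in the sources used here. The labels give untreated cells no time in culture and no later untreated group was analysed here, so drug and time in culture cannot be told apart where a later week is set against untreated cells. Steps between weeks in which drug was given or withdrawn, and differences between such steps, have the same limit. So do comparisons between different weeks in the same drug state. The sources used here do not tell if replicates were grown apart, so p-values measure the spread between these libraries.

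A replication origin is licensed in G1 when the origin recognition complex, CDC6 and CDT1 load the ring of MCM2 to MCM7 onto DNA. At the start of S phase the kinase CDC7, cyclin-dependent kinases and MCM10 help to turn that ring into the active helicase with CDC45 and GINS, and primase, the polymerases, the PCNA clamp, RPA and the enzymes that make deoxynucleotides then carry synthesis. Many of these genes are transcribed under E2F factors, which retinoblastoma protein holds back until cyclin-dependent kinases release them, and BRAF signalling through ERK drives that release in melanoma cells. In bulk RNA, fewer cells in S phase and less RNA per cell cannot be told apart, and this holds for every level below.

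The total count per library lay between 22934039 and 35804978. SOX10, which marks the melanocyte lineage, averaged at least 129 CPM in every group, whereas the 9 melanoma markers summed to 8102 to 8255 CPM at 20 hours, to 327 to 372 CPM at continuous week 2 and to 2376 to 2492 CPM in untreated BRAF-V600E cells. The 8 fibroblast markers summed to 2235 to 2476 CPM at continuous week 4, where COL1A1 gave most of the sum, to 30.3 to 33.1 CPM off drug at week 2 and to 3.18 to 3.63 CPM in untreated cells. DCN reached a group mean of at most 1.63 CPM and THY1 of at most 0.973 CPM, with THY1 at 0 at week 1, and the part of these markers in the results was not tested. Endothelial markers summed to at most 30.2 CPM, immune markers to at most 11.9 CPM and keratinocyte markers to at most 5.03 CPM in a library. BRAF averaged 895 ± 7.17 CPM in BRAF-V600E cells and 40.2 ± 2.83 CPM in vector cells (SD, n = 3 each). Off drug it averaged 3232 ± 59.9 CPM at week 2 and 3404 ± 83.9 CPM at week 4, against 1082 ± 48.5 CPM at continuous week 2 and 1018 ± 39.05 CPM at continuous week 4 (SD, n = 2 at continuous week 4, otherwise 3), so the arms of both holiday comparisons also differed in BRAF RNA. The count columns of the rechallenged libraries are named as off drug, and the sample labels say on drug. DUSP6, a phosphatase gene that ERK activity switches on, stood at 116, 101 and 109 CPM in those libraries, near the 97.4 to 106 CPM of the continuous arm at week 3 and below the 639 to 675 CPM of cells off drug at week 2. Replicate 3 of continuous week 2 and replicate 1 of the rechallenged group stood apart from both other libraries of their group, and counts over the 39 genes in comparisons that hold them are given without them as well.

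Per length of exon, the replication genes of untreated BRAF-V600E cells spanned from 3.02 ± 0.273 RPKM for GINS3 to 108 ± 7.93 RPKM for PCNA (SD, n = 3). RNA levels differed between partners. MCM7 reached 69.4 ± 3.92 RPKM and MCM2, another subunit of the same ring, 12.7 ± 0.86 RPKM, and the nucleotide enzyme TYMS reached 74.4 ± 4.22 RPKM against 3.39 ± 0.204 RPKM for MCM10 and 4.13 ± 0.172 RPKM for the kinase CDC7. TYMS shares 39.1% of its exon length with ENOSF1 on the opposite strand, so its count is uncertain where counting ignored strand. MCM7 shares 8.94% with AP4M1 in the same way.

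Summed over all 39 genes, untreated BRAF-V600E cells gave 0.283% ± 0.00802 of their counts to replication genes (SD, n = 3). The share was 0.0549% ± 0.00196 at 20 hours of drug and 0.169% ± 0.00251 at week 1. In the continuous arm it was 0.222% ± 0.0032 at week 2, 0.149% ± 0.00953 at week 3 and 0.122% ± 0.00262 at week 4 (n = 2 at week 4). In the intermittent arm it was 0.113% ± 0.00261 off drug at week 2, 0.228% ± 0.0148 after rechallenge at week 3 and 0.179% ± 0.00932 off drug at week 4. The share was lower off drug than on drug at week 2, and higher off drug than on drug at week 4. Of the 39 genes, 38 had their lowest group mean at 20 hours, the exception being RPA1 with its lowest mean off drug at week 2, and 31 had their highest in untreated BRAF-V600E cells.

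**Figure D1:**
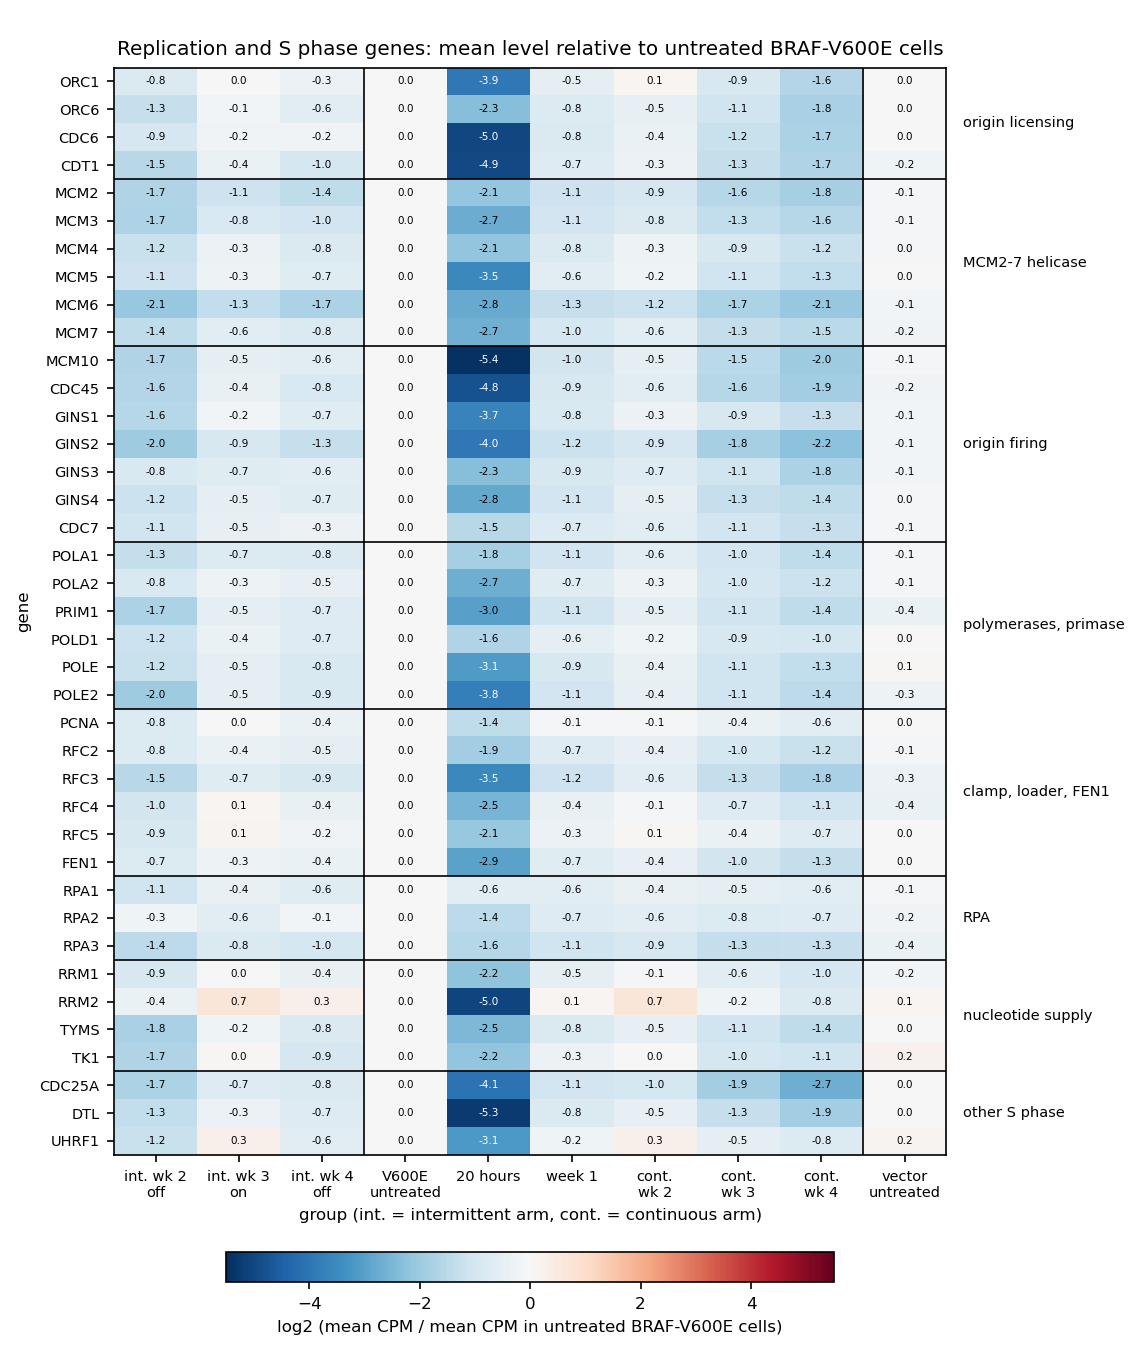
Log2 of the group mean CPM over the mean in untreated BRAF-V600E cells for each of the 39 genes (rows, by role) in each group (columns). The 20-hour column is the darkest blue for 38 of 39 genes, and RRM2 is above its untreated level at continuous week 2 and after rechallenge at week 3.

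Promoter windows of these genes are shown because many replication genes are known E2F targets and the members moved together. RefSeq promoters (GRCh38.p14, 250 bases before to 50 after the first listed start of a gene) were available for 34 of the 39 genes. They were searched on both strands for the E2F-type octamers TTTCCCGC, TTTGGCGC, TTTCGCGC and TTTGCCGC, where TTTCGCGC on one strand can overlap TTTGGCGC on the other. A match stood in 19 of the 34 promoters (55.9%), against 908 of 27305 promoters of all genes (3.33%) and 11 of 37 promoters of other replication genes (29.7%). CCAAT, on either strand, stood in 21 of the 34 (61.8%), against 35.7% of all genes and 21 of 37 promoters of other replication genes (56.8%). The windows below run 5′ to 3′ on the strand of the gene, with octamer matches in capitals, for 6 genes with a match and then for MCM10 and RPA1, which held none and had the largest and smallest fall at 20 hours. MCM6 (chr2:135876484-135876613, minus strand) is shown over 130 bases from position -170 relative to its start and holds overlapping pairs, each printed as 1 run of capitals. The others are shown at positions -100 to 30: MCM3 (chr6:52284713-52284842, minus), CDC6 (chr17:40287779-40287908, plus), CDT1 (chr16:88803689-88803818, plus), GINS2 (chr16:85688925-85689054, minus), POLE2 (chr14:49688185-49688314, minus), MCM10 (chr10:13161458-13161587, plus) and RPA1 (chr17:1829905-1830034, plus).
MCM6: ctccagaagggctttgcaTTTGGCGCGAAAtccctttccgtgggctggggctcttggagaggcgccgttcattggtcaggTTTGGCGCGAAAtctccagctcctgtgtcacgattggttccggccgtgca
MCM3: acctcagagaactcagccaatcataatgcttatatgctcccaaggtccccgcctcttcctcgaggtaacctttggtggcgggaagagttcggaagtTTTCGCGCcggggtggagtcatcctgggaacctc
CDC6: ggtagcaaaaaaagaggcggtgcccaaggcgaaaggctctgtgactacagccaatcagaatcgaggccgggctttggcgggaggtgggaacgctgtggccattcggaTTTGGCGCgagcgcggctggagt
CDT1: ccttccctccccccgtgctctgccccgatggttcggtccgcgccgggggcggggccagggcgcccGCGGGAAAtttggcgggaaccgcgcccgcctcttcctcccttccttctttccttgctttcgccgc
GINS2: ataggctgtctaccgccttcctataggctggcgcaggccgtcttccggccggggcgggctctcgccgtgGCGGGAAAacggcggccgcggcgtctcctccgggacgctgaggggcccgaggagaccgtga
POLE2: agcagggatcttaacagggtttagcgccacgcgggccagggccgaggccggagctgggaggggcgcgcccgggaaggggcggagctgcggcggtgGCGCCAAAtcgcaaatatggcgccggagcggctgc
MCM10: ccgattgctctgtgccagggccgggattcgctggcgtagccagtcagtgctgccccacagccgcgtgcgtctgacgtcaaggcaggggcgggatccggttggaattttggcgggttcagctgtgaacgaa
RPA1: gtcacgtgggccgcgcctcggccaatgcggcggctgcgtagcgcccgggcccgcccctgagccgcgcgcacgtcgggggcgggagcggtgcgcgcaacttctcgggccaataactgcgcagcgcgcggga
A match is a run of letters and not a measured binding site. Only exact octamers were marked. The letters tttggcgg, which differ from TTTGGCGC in the last base, stand unmarked in the MCM10, CDC6 and CDT1 windows. The median log2 change at 20 hours was -3.12 over the 19 genes with a match and -2.35 over the 15 without, and both sets ranged widely, between -5.26 and -1.41 with a match and between -5.42 and -0.58 without. At week 1 against untreated cells the medians were -0.89 with and -0.57 without. Off drug against continuous drug at week 2 they were -0.88 and -0.91, and after rechallenge against off drug 0.88 and 1.01. The order of the sets thus differed between comparisons, and their difference was not tested.

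**Figure D2:**
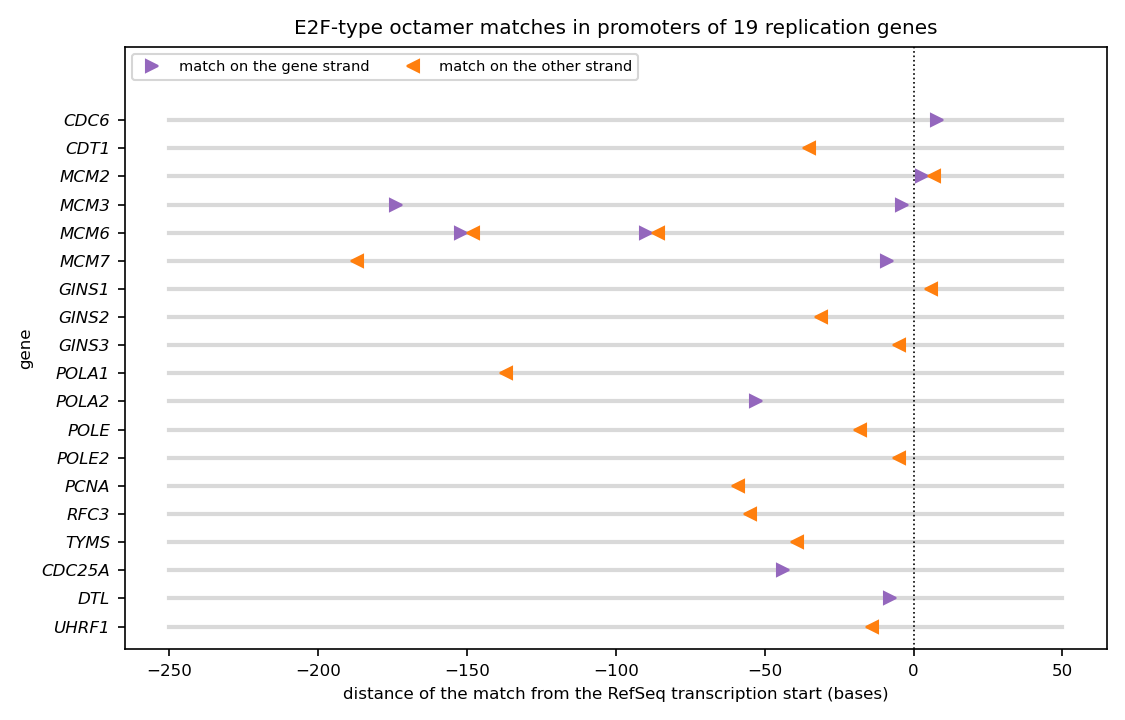
Position of each E2F-type octamer match relative to the RefSeq transcription start (bases) in the 19 promoters that held one (rows), pointing right for the gene's strand and left for the other strand. Grey bars are the searched windows, and MCM6 carries 4 matches in overlapping pairs.

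The first question was what added BRAF-V600E changed without drug. Few of the replication genes differed: 4 of 39 were higher in BRAF-V600E cells, where 7.04% of all tested genes were higher, and the median log2 change over the 39 was 0.06. RPA3, the smallest RPA subunit, was at 21.8, 28.6 and 26.5 CPM in BRAF-V600E cells and 20.6, 18.3 and 20.4 CPM in vector cells (0.38 ± 0.12 on the log2 scale, SE, edgeR adjusted p = 0.0325). The primase subunit PRIM1 was at 19.3, 22.4 and 19.1 CPM against 16.00, 15.4 and 16.1 CPM in vector cells (0.36 ± 0.12, edgeR adjusted p = 0.0342). For both genes every BRAF-V600E library lay above every vector library. The clamp loader genes RFC4 (0.35 ± 0.10, edgeR adjusted p = 0.0154) and RFC3 (0.32 ± 0.09, edgeR adjusted p = 0.00806) were also higher. Values of the genes followed throughout lay close together, for example CDC6 at 57.6, 58.1 and 56.5 CPM in BRAF-V600E cells and 55.9, 54.8 and 58.8 CPM in vector cells, and their log2 changes ran from -0.15 for UHRF1 to 0.30 for POLE2, none past the threshold. At this size the count was unstable: it was 2 without vector replicate 1, 1 without vector replicate 2, 1 without BRAF-V600E replicate 2, 9 when both groups were fitted alone (and 1 lower) and 6 with DESeq2, and 9 of 39 had an unadjusted p under 0.05. The share of all tested genes called higher also moved, to 12.5% when both groups were fitted alone and 5.01% with DESeq2, against 7.04%. PRIM1 lost its call without BRAF-V600E replicate 2 or any 1 vector library (0.28 to 0.37), RPA3 without BRAF-V600E replicate 2 or 3 or vector replicate 1 or 2 (0.30 to 0.42 as a log2 change), and RFC4 without BRAF-V600E replicate 2 (0.32) or vector replicate 2 (0.30). The melanoma marker sum was 2376 to 2492 CPM in BRAF-V600E cells and 2838 to 2963 CPM in vector cells, and the mitochondrial share of counts was 15.7% ± 0.714 in BRAF-V600E cells and 12.8% ± 0.353 in vector cells (SD, n = 3 each). Their part in the result was not tested.

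After 20 hours of LGX818 the replication program was at its lowest. All 39 genes fell, 38 of them by at least 2-fold, where 25.2% of all tested genes fell and 10.8% fell by at least 2-fold. The median log2 change was -2.73, against 0.06 over all genes. By role the median was -4.44 for licensing, -4.05 for the regulators CDC25A, DTL and UHRF1, -3.66 for firing, -2.82 for polymerases, -2.69 for the helicase ring, -2.35 for nucleotide supply, -2.32 for the clamp group and -1.44 for RPA. The mitochondrial share of counts moved too, to 19.5% ± 1.62 at 20 hours, against 15.7% ± 0.714 in untreated cells (SD, n = 3 each). The melanoma marker sum was 8102 to 8255 CPM at 20 hours and 2376 to 2492 CPM in untreated cells, with PMEL at 2717 ± 188 CPM at 20 hours and 647 ± 32.9 CPM in untreated cells. The part of both in the result was not tested.

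CDC6, the ATPase that recruits the MCM ring to origins, stood at 1.84, 1.94 and 1.58 CPM at 20 hours, against 57.6, 58.1 and 56.5 CPM in untreated cells. MCM10, a firing factor, stood at 0.502, 0.258 and 0.514 CPM, on 31 counts over the 3 libraries, against 18.7, 19.5 and 17.3 CPM in untreated cells. DTL, the receptor of the ubiquitin ligase that destroys CDT1 in S phase, was at 1.67, 1.895 and 1.03 CPM against 61.2, 58.5 and 56.2 CPM in untreated cells. Each of these had nearly gone from the libraries at 20 hours, with log2 changes of -5.01 ± 0.10 for CDC6, -5.42 ± 0.17 for MCM10 and -5.26 ± 0.13 for DTL (edgeR adjusted p = 5.89e-27, 5.93e-22 and 4.66e-24). RRM2, the regulated subunit of ribonucleotide reductase, was at 4.56, 4.91 and 3.84 CPM at 20 hours and 144, 145 and 147 CPM in untreated cells (-5.04 ± 0.09, edgeR adjusted p = 2.24e-28). Its partner subunit RRM1 fell less (-2.21 ± 0.07, edgeR adjusted p = 2.4e-21).

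Among firing factors, CDC45 stood at 1.59, 1.21 and 1.19 CPM at 20 hours, against 36.8, 36.8 and 37.2 CPM in untreated cells (-4.79 ± 0.12). GINS2 stood at 2.51, 1.46 and 2.37 CPM at 20 hours, against 30.6, 35.3 and 32.4 CPM in untreated cells (-3.95 ± 0.16). CDC7, the kinase that acts on the loaded ring, kept more of its level, at 4.48, 6.25 and 4.63 CPM against 15.4, 14.2 and 14.5 CPM in untreated cells (-1.52 ± 0.13). The groups did not overlap for any of the 3, and the edgeR adjusted p was 6.68e-24 for CDC45, 2.33e-19 for GINS2 and 1.81e-11 for CDC7. In the helicase ring MCM2 was at 14.6, 13.7 and 14.1 CPM at 20 hours and 57.8, 66.2 and 62.96 CPM in untreated cells (-2.14 ± 0.09, edgeR adjusted p = 2.11e-18). MCM6 was at 19.2, 23.05 and 20.4 CPM at 20 hours and 139, 152 and 139.99 CPM in untreated cells (-2.78 ± 0.08, edgeR adjusted p = 8.8e-23). The log2 changes of the ring ran between -3.55 for MCM5 and -2.14 for MCM2, and those of the firing factors between -5.42 for MCM10 and -1.52 for CDC7.

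POLE2, a subunit of the leading-strand polymerase, was at 0.627, 1.16 and 0.712 CPM at 20 hours and 11.6, 12.3 and 10.3 CPM in untreated cells (-3.77 ± 0.18, edgeR adjusted p = 1.02e-17). TYMS, which makes thymidylate, was at 33.8, 32.5 and 31.9 CPM at 20 hours and 179.7, 195 and 176 CPM in untreated cells (-2.49 ± 0.09, edgeR adjusted p = 1.7e-20). PCNA, the sliding clamp, was at 60.7, 61.6 and 57.3 CPM at 20 hours and 148, 171 and 159 CPM in untreated cells (-1.41 ± 0.09, edgeR adjusted p = 6.5e-15). The groups did not overlap for any of these genes, and PCNA, the gene with the highest RPKM of the set in untreated cells, had the smallest log2 change of the 3. CDC25A, the phosphatase that activates CDK2, was at 1.51, 1.55 and 1.07 CPM at 20 hours and 24.2, 24.3 and 19.8 CPM in untreated cells (-4.05 ± 0.13, edgeR adjusted p = 2.46e-21). UHRF1, which brings maintenance methylation to newly copied DNA, was at 5.44, 5.43 and 6.48 CPM at 20 hours and 52.8, 50.9 and 49.4 CPM in untreated cells (-3.14 ± 0.12, edgeR adjusted p = 6.36e-20). RPA1, the large single-strand binding subunit, fell the least of all 39, with 88.4, 90.8 and 86.9 CPM at 20 hours against 127, 135 and 134 CPM in untreated cells (-0.58 ± 0.06, edgeR adjusted p = 4.32e-10).

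**Figure D3:**
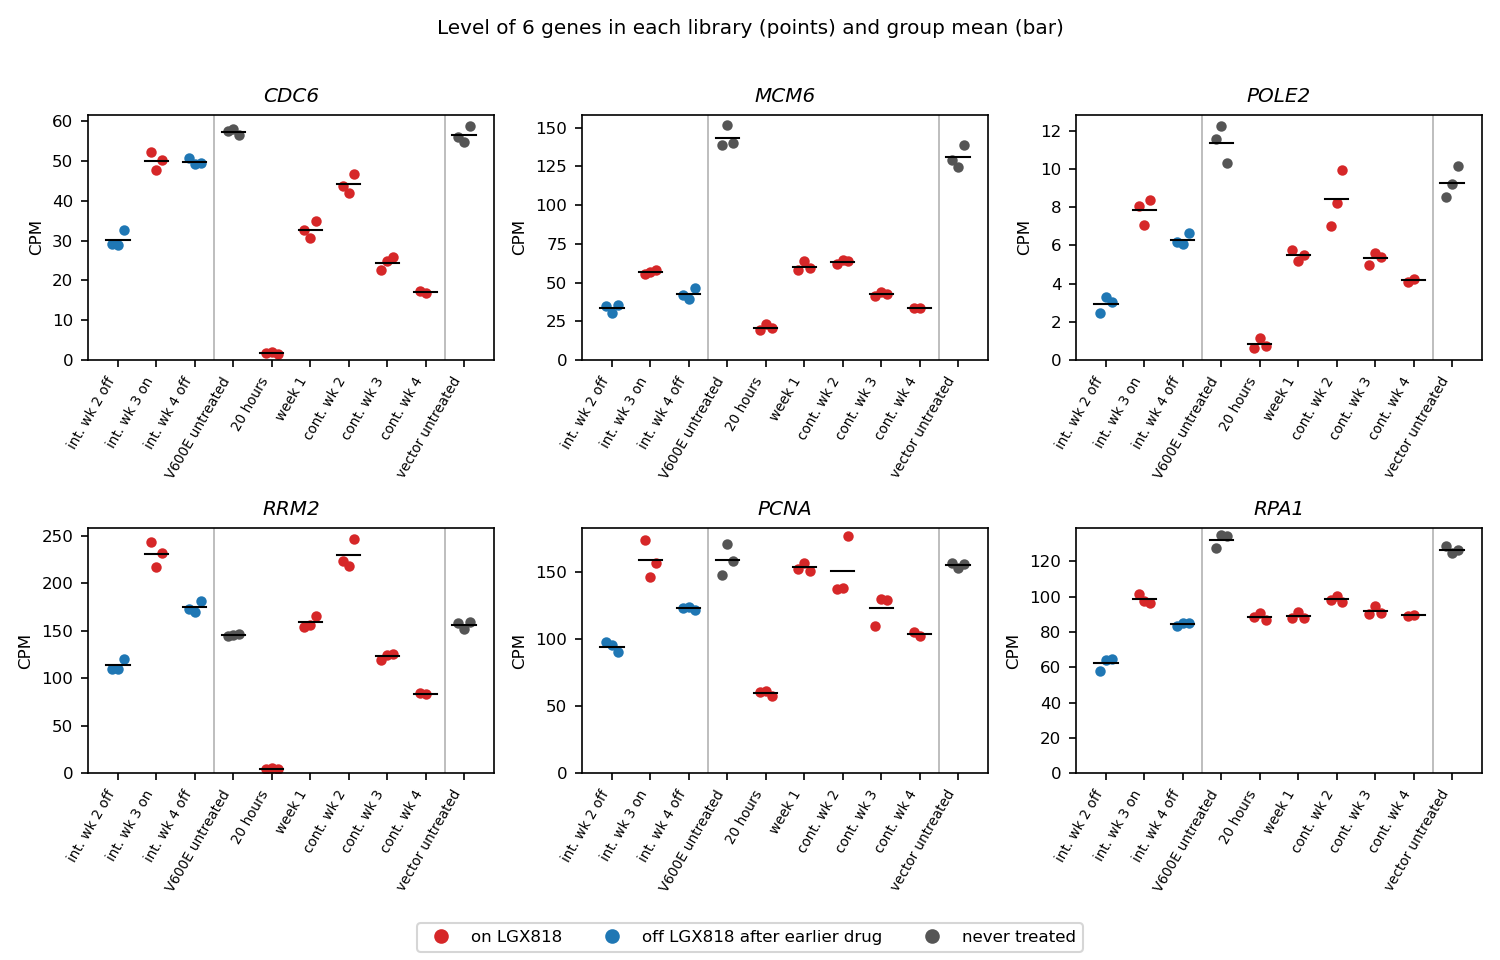
CPM of CDC6, MCM6, POLE2, RRM2, PCNA and RPA1 in each library (points) with the group mean (bar), with the intermittent arm on the left, then untreated cells and the course on drug, then vector cells. CDC6 and RRM2 are near 0 at 20 hours; at week 1 RRM2 is above its untreated level and CDC6 below its own, MCM6 stays below its untreated level in every group on drug or after it, and RPA1 has its lowest values off drug at week 2.

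By week 1 of unbroken drug most of the genes stood well above their level at 20 hours. Compared with 20 hours, 38 of 39 were higher at week 1, where 28.6% of all tested genes were higher, with a median log2 change of 1.87. RRM2 rose to 154, 156 and 166 CPM at week 1, against 4.56, 4.91 and 3.84 CPM at 20 hours (5.16 ± 0.09, edgeR adjusted p = 1.18e-28). CDC6 rose to 32.6, 30.8 and 34.9 CPM at week 1, against 1.84, 1.94 and 1.58 CPM at 20 hours (4.20 ± 0.10, edgeR adjusted p = 3.34e-25). The groups lay far apart for both. DTL (4.47), MCM10 (4.40) and CDT1 (4.23) were the other largest rises on the log2 scale. RPA1 was the gene that did not pass the threshold, at 87.8, 91.3 and 87.8 CPM at week 1 and 88.4, 90.8 and 86.9 CPM at 20 hours (log2 difference with 95% interval -0.11 to 0.12). Mitochondrial reads were 10.3% ± 0.857 of counts at week 1 and 19.5% ± 1.62 at 20 hours (SD, n = 3 each), and the melanoma marker sum was 837 to 904 CPM at week 1 and 8102 to 8255 CPM at 20 hours. The fibroblast marker sum was 254 to 265 CPM at week 1 and 3.44 to 5.103 CPM at 20 hours, and the part of these in the result was not tested.

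Set against untreated cells, week 1 cells had less replication RNA. Of the 39 genes, 36 were lower at week 1, where 26.7% of all tested genes were lower, and the median log2 change was -0.79. MCM6 was at 58.1, 63.6 and 59.2 CPM at week 1 and 139, 152 and 139.99 CPM in untreated cells (-1.25 ± 0.07, edgeR adjusted p = 2.91e-15), the largest fall. MCM2 was at 27.6, 30.2 and 28.04 CPM at week 1 (-1.12 ± 0.09) and GINS2 at 14.3, 14.9 and 13.9 CPM (-1.19 ± 0.12), with edgeR adjusted p of 2.37e-12 and 1.28e-09. RFC3, of the clamp loader, completed the 4 largest falls (-1.15 ± 0.09). By role the median log2 change was -1.02 for the helicase ring, -0.74 for licensing factors and -0.41 for nucleotide enzymes. The 3 genes not past the threshold were PCNA at 152, 157 and 151 CPM at week 1 (95% interval of the log2 change -0.22 to 0.12), RRM2 (-0.01 to 0.26) and UHRF1 at 43.4, 46.1 and 42.1 CPM (-0.42 to -0.01). These intervals are not adjusted for the number of genes tested. RRM2 was higher in each week 1 library than in each untreated library, and it was called higher by DESeq2 and when the compared groups were fitted alone, where UHRF1 was called lower (-0.21). The remaining genes followed throughout were lower, with CDC25A at 11.4, 10.5 and 10.7 CPM at week 1 (-1.07 ± 0.10), POLE2 at 5.78, 5.16 and 5.495 CPM (-1.06 ± 0.13) and CDC45 at 18.6, 19.4 and 21.3 CPM (-0.90 ± 0.09). TYMS stood at 104, 106 and 109 CPM at week 1 (-0.79 ± 0.08) and CDC7 at 8.79, 7.65 and 10.1 CPM (-0.73 ± 0.12). The log2 change of CDC6 was -0.81 ± 0.07. Fibroblast markers summed to 254 to 265 CPM at week 1 and 3.18 to 3.63 CPM in untreated cells, and melanoma markers to 837 to 904 CPM at week 1 and 2376 to 2492 CPM in untreated cells. The mitochondrial share was 10.3% ± 0.857 at week 1 and 15.7% ± 0.714 in untreated cells (SD, n = 3 each), and the part of these in the result was not tested.

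After a further week of unbroken drug most of the genes were higher. At continuous week 2, 30 of 39 were higher than at week 1, where 16% of all tested genes were higher, and the median log2 change was 0.36. POLE2 was at 7.04, 8.23 and 9.94 CPM at continuous week 2 and 5.78, 5.16 and 5.495 CPM at week 1 (0.62 ± 0.13, edgeR adjusted p = 0.000599). RRM2 was at 224, 218 and 246 CPM at continuous week 2 and 154, 156 and 166 CPM at week 1 (0.53 ± 0.07, edgeR adjusted p = 2.08e-07), and its mean reached 158% of that of untreated cells. CDC6 (43.7, 42.1 and 46.8 CPM, 0.43 ± 0.07) and UHRF1 (64.1, 68.2 and 51.97 CPM, 0.48 ± 0.10) were higher too, with edgeR adjusted p of 1.68e-05 and 0.000308. ORC1, the large origin recognition subunit, rose to 17.7, 19.1 and 16.9 CPM at continuous week 2, against 11.3, 11.5 and 12.1 CPM at week 1 (0.62 ± 0.10, edgeR adjusted p = 1.05e-05), and PRIM1 (0.62) and GINS4 (0.54) were the other leading rises. CDC45 at 25.2, 23.1 and 26.8 CPM (0.34 ± 0.09) and TYMS at 129, 127 and 146 CPM (0.33 ± 0.08) passed the threshold as well.

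The remaining 9 genes did not pass the threshold. Among them were MCM6 at 62.2, 64.6 and 63.6 CPM at continuous week 2 (0.07 ± 0.07), MCM2 at 33.6, 34.2 and 32.1 CPM (0.22 ± 0.09) and CDC25A at 10.7, 13.4 and 11.2 CPM (0.12 ± 0.10). CDC7 stood at 10.2, 9.04 and 10.6 CPM (0.17 ± 0.12), GINS2 at 14.1, 16.9 and 21.2 CPM (0.28 ± 0.13) and PCNA at 137, 138 and 177 CPM (-0.03 ± 0.08). Replicate 3 of continuous week 2 was the highest of its group for PCNA, GINS2 and RRM2, and without it 23 of 39 genes were higher. GINS2 passed the threshold without replicate 1 of continuous week 2 (0.38). The fibroblast marker sum was 1076 to 1122 CPM at continuous week 2 and 254 to 265 CPM at week 1, the melanoma marker sum was 327 to 372 CPM at continuous week 2 and 837 to 904 CPM at week 1, and their part in the result was not tested.

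In the later weeks of unbroken drug the genes were lower again. At continuous week 3, 37 of 39 were lower than at continuous week 2, where 10.8% of all tested genes were lower, and the median log2 change was -0.65. CDC45 was at 11.5, 12.4 and 12.9 CPM at week 3 and 25.2, 23.1 and 26.8 CPM at week 2 (-1.03 ± 0.09, edgeR adjusted p = 7.75e-10). The salvage enzyme TK1 was at 20.6, 29.2 and 30.7 CPM at week 3 and 49.3, 55.9 and 57.3 CPM at week 2 (-1.01 ± 0.13, edgeR adjusted p = 4.05e-07). ORC1 (-0.99) and CDC25A (-0.97) also led, whereas RPA1 (-0.10 ± 0.06) and RPA2 (-0.18 ± 0.08) did not pass the threshold. Without replicate 3 of continuous week 2, 34 of 39 were lower, and PCNA lost its call (-0.29 ± 0.08 with all libraries, -0.17 without that library and -0.22 without continuous week 3 replicate 1). At week 3 MCM2 stood at 20.2, 21.3 and 20.9 CPM (-0.68 against week 2), MCM6 at 41.4, 44.2 and 42.9 CPM (-0.57) and GINS2 at 8.22, 10.9 and 8.65 CPM (-0.91). CDC7 stood at 6.39, 7.05 and 7.51 CPM (-0.503), POLE2 at 4.98, 5.61 and 5.42 CPM (-0.65) and PCNA at 110.1, 129.8 and 129 CPM. CDC6 (-0.85), RRM2 (-0.90), TYMS (-0.65) and UHRF1 (-0.76) were lower too. Fibroblast markers summed to 1663 to 1749.8 CPM at week 3 and 1076 to 1122 CPM at week 2, and melanoma markers to 425 to 489.6 CPM at week 3 and 327 to 372 CPM at week 2, and their part in the result was not tested.

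At continuous week 4, 35 of 39 genes were lower than at week 1, where 19.9% of all tested genes were lower, with a median log2 change of -0.56. CDC25A fell furthest, to 3.23 and 3.91 CPM in the 2 libraries of continuous week 4, against 11.4, 10.5 and 10.7 CPM at week 1 (-1.60 ± 0.13, edgeR adjusted p = 2.28e-11). GINS2 was at 7.27 and 6.64 CPM at week 4 (-1.05 ± 0.15), CDC45 at 8.72 and 11.1 CPM (-0.9997 ± 0.11) and CDC6 at 17.3 and 16.8 CPM (-0.94 ± 0.08), with edgeR adjusted p of 1.39e-06, 5.1e-09 and 1.08e-10. RRM2 was at 83.9 and 82.9 CPM at week 4 (-0.93 ± 0.08), MCM6 at 33.4 and 33.3 CPM (-0.85 ± 0.09) and TYMS at 69.8 and 68.9 CPM (-0.62 ± 0.09). All of these lay below every week 1 library. DTL (-1.10) and ORC1 (-1.09) completed the leading falls. MCM2 (20.2 and 15.2 CPM, -0.69 ± 0.10), PCNA (106 and 102 CPM, -0.56 ± 0.09), UHRF1 (29.7 and 30.1 CPM, -0.55 ± 0.11) and CDC7 (6.07 and 6.05 CPM, -0.54 ± 0.14) were lower as well. POLE2 was lower by a margin that did not hold, at 4.096 and 4.24 CPM (-0.39 ± 0.16, edgeR adjusted p = 0.0467), and lost its call without any 1 of the 5 libraries compared, with log2 changes of -0.43 to -0.37, and also with RLE factors, with DESeq2, with the replicate block and without the count filter (-0.41 to -0.36). The 4 genes not past the threshold were RPA1 (0.01 ± 0.06), RPA2 (-0.02 ± 0.09), RPA3 (-0.16 ± 0.15) and PRIM1 (-0.31 ± 0.14), so no RPA subunit passed it, and PRIM1 did without week 1 replicate 1 (-0.44) or with the compared groups alone (-0.30).

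Against untreated cells all 39 genes were lower at continuous week 4, where 26% of all tested genes were lower, and the median log2 change was -1.39. The falls were largest for CDC25A (-2.67 ± 0.13), GINS2 (-2.24 ± 0.15), MCM6 (-2.10 ± 0.09) and MCM10 (-1.96 ± 0.13). They were -1.90 for CDC45, -1.82 for MCM2, -1.75 for CDC6, -1.45 for POLE2, -1.41 for TYMS and -1.28 for CDC7 on the log2 scale. RRM2 (-0.80), UHRF1 (-0.77) and PCNA (-0.61) had changed less. Beside this, the fibroblast marker sum was 2235 to 2476 CPM at continuous week 4 and 3.18 to 3.63 CPM in untreated cells, and at week 1, with which week 4 was also compared, it was 254 to 265 CPM. The melanoma marker sum was 423 to 444 CPM at continuous week 4, 837 to 904 CPM at week 1 and 2376 to 2492 CPM in untreated cells, and the part of these in the results was not tested.

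**Figure D4:**
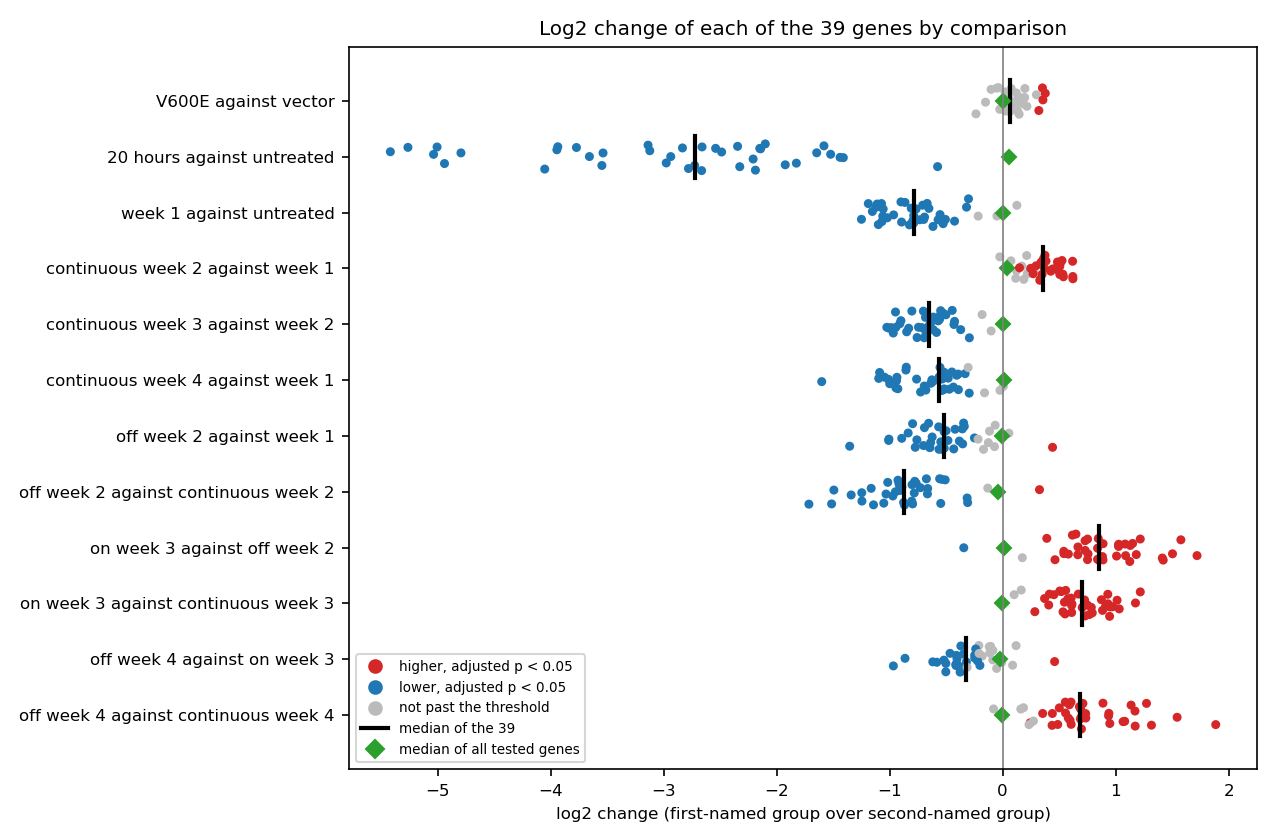
Log2 change of each of the 39 genes (points) in 12 comparisons (rows), first-named group over second-named group, with the median of the 39 (black bar) and of all tested genes (green diamond). Nearly all points lie left of 0 off drug at week 2 and right of 0 after rechallenge. Off drug at week 4 most points lie right of 0 against continuous week 4 and left of 0 against rechallenged week 3.

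The drug holiday at week 2 was compared with unbroken drug at the same time. Cells 7 days off drug had less replication RNA: 37 of 39 genes were lower off drug than at continuous week 2, where 27.9% of all tested genes were lower, and the median log2 change was -0.88. TK1 was at 16.1, 17.5 and 15.9 CPM off drug and 49.3, 55.9 and 57.3 CPM at continuous week 2 (-1.71 ± 0.13, edgeR adjusted p = 1.91e-12). POLE2 was at 2.47, 3.29 and 3.03 CPM off drug and 7.04, 8.23 and 9.94 CPM at continuous week 2 (-1.51 ± 0.15, edgeR adjusted p = 2.5e-10). UHRF1 was at 20.3, 22.1 and 22.98 CPM off drug and 64.1, 68.2 and 51.97 CPM at continuous week 2 (-1.49 ± 0.10, edgeR adjusted p = 1.54e-13). For each of the 3 genes every off-drug library lay below every continuous library, and the fall was over 1 log2 unit. TYMS stood at 49.8, 49.1 and 59.8 CPM off drug (-1.34 ± 0.09, edgeR adjusted p = 2.12e-14), RRM2 at 109.7, 110.01 and 120.4 CPM (-1.02 ± 0.07, edgeR adjusted p = 5.16e-14) and CDC45 at 11.4, 12.4 and 12.8 CPM (-1.03 ± 0.09, edgeR adjusted p = 6.42e-11).

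Nucleotide enzymes fell most by role, with a median log2 change of -1.18, and RPA least, at -0.56. GINS2 was at 7.96, 8.76 and 8.46 CPM off drug (-1.05 ± 0.13), MCM6 at 35.2, 30.6 and 35.6 CPM (-0.91 ± 0.08), CDC25A at 6.83, 6.86 and 6.93 CPM (-0.78 ± 0.11) and MCM2 at 19.4, 20.2 and 19.2 CPM (-0.77 ± 0.09). PCNA was at 97.6, 95.9 and 90.1 CPM off drug (-0.68 ± 0.08), CDC6 at 29.05, 28.9 and 32.6 CPM (-0.55 ± 0.07) and CDC7 at 6.497, 6.61 and 7.77 CPM (-0.51 ± 0.13). RPA2, the middle RPA subunit, was the 1 gene that rose, where 27.3% of all tested genes rose, at 33.4, 33.8 and 29.98 CPM off drug and 24.4, 23.97 and 29.2 CPM at continuous week 2 (0.33 ± 0.08, edgeR adjusted p = 0.00133). Every off-drug library exceeded every continuous library for RPA2. GINS3 did not pass the threshold (-0.13 ± 0.13, edgeR adjusted p = 0.398). Without replicate 3 of continuous week 2 the count of lower genes was 37 too. The fibroblast marker sum was 30.3 to 33.1 CPM off drug and 1076 to 1122 CPM at continuous week 2, the melanoma marker sum was 721 to 730.1 CPM off drug and 327 to 372 CPM at continuous week 2, and BRAF RNA was higher off drug as given above. Their part in the result was not tested.

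Off-drug cells at week 2 were also set against the cells they came from and against untreated cells. Against week 1, from which they came, 31 of 39 genes were lower off drug, where 26.8% of all tested genes were lower (median log2 change -0.52), and RPA2 was higher, where 27.7% of all tested genes were (0.44 ± 0.08, edgeR adjusted p = 4.02e-05). TK1 led the falls (-1.35 ± 0.13), followed by UHRF1 (-1.01 ± 0.10), TYMS (-1.01 ± 0.08) and POLE2 (-0.89 ± 0.15). MCM6 (-0.84), GINS2 (-0.77), PCNA (-0.70), CDC45 (-0.69), CDC25A (-0.66), MCM2 (-0.55) and RRM2 (-0.48) were lower as well. CDC7 was lower (-0.34) but not without week 1 replicate 3 (-0.24), off-drug replicate 1 (-0.29) or off-drug replicate 2 (-0.33), nor with DESeq2 (-0.29). CDC6 did not pass the threshold (-0.12 ± 0.07) and did without off-drug replicate 3 (-0.20). Against untreated cells all 39 were lower off drug, where 28.8% of all tested genes were lower, with a median log2 change of -1.23. MCM6 (-2.09 ± 0.08), GINS2 (-1.96 ± 0.13), POLE2 (-1.95 ± 0.14) and TYMS (-1.79 ± 0.09) lay furthest below untreated cells. The log2 change was -1.73 for CDC25A, -1.67 for MCM2, -1.59 for CDC45, -1.23 for UHRF1, -1.07 for CDC7, -0.93 for CDC6 and -0.75 for PCNA. RRM2 (-0.36 ± 0.07) and RPA2 (-0.26 ± 0.08) had the smallest falls. Fibroblast markers came to 30.3 to 33.1 CPM off drug, 254 to 265 CPM at week 1 and 3.18 to 3.63 CPM in untreated cells, and melanoma markers to 721 to 730.1 CPM off drug, 837 to 904 CPM at week 1 and 2376 to 2492 CPM in untreated cells. BRAF averaged 3232 ± 59.9 CPM off drug, 788 ± 27.1 CPM at week 1 and 895 ± 7.17 CPM in untreated cells (SD, n = 3 each). The part of these in the results was not tested.

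With the drug given back, the genes were higher. After 7 days of rechallenge, 37 of 39 were higher than off drug at week 2, where 27.8% of all tested genes were higher, with a median log2 change of 0.85. TK1 was at 68.5, 48.8 and 45.8 CPM after rechallenge and 16.1, 17.5 and 15.9 CPM off drug (1.72 ± 0.13, edgeR adjusted p = 1.68e-12). TYMS was at 172, 160.3 and 142 CPM after rechallenge and 49.8, 49.1 and 59.8 CPM off drug (1.58 ± 0.09, edgeR adjusted p = 5e-16). GINS1 was at 23.1, 22.5 and 23.6 CPM after rechallenge and 7.59, 8.37 and 9.82 CPM off drug (1.42 ± 0.09, edgeR adjusted p = 7.35e-14). The rechallenged libraries lay above the off-drug libraries for all 3 genes. UHRF1 rose to 67.2, 62.2 and 56.03 CPM (1.503 ± 0.10), POLE2 to 8.06, 7.07 and 8.402 CPM (1.41 ± 0.14), CDC45 to 29.8, 27.4 and 26.2 CPM (1.18 ± 0.09) and GINS2 to 20.2, 17.7 and 15.7 CPM (1.09 ± 0.13) after rechallenge. RRM2 rose to 244, 218 and 232 CPM (1.03 ± 0.07), a mean of 159% of that in untreated cells, and CDC25A to 13.02, 14.5 and 14.6 CPM (1.03 ± 0.11). MCM6 at 55.7, 56.6 and 58.2 CPM (0.75 ± 0.08), PCNA at 174, 147 and 157 CPM (0.75 ± 0.08) and CDC6 at 52.3, 47.9 and 50.2 CPM (0.73 ± 0.07) were higher by less, as were CDC7 at 11.5, 9.39 and 11.2 CPM (0.62 ± 0.12) and MCM2 at 29.9, 26.9 and 28.8 CPM (0.54 ± 0.09).

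RPA2 was the 1 gene that fell, where 28.5% of all tested genes fell, at 26.4, 26.3 and 23.8 CPM after rechallenge and 33.4, 33.8 and 29.98 CPM off drug (-0.34 ± 0.08, edgeR adjusted p = 0.000709), with no overlap between the groups. GINS3 did not pass the threshold (0.17 ± 0.13, edgeR adjusted p = 0.249). Replicate 1 of the rechallenged group stood apart and was its highest library for TK1, TYMS, RRM2 and PCNA, and without it the count of higher genes was 37 too. The fibroblast marker sum was 635 to 758 CPM after rechallenge and 30.3 to 33.1 CPM off drug. The melanoma marker sum was 478 to 599 CPM after rechallenge and 721 to 730.1 CPM off drug. BRAF averaged 974 ± 163 CPM after rechallenge and 3232 ± 59.9 CPM off drug (SD, n = 3 each), and the part of these in the result was not tested.

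Rechallenged cells also exceeded cells that had stayed on drug. At week 3, 37 of 39 genes were higher after rechallenge than under continuous drug, where 14% of all tested genes were higher, and the median log2 change was 0.70. The licensing and regulator groups led with a median of 0.95 each. CDC25A was at 13.02, 14.5 and 14.6 CPM after rechallenge and 6.503, 5.86 and 5.76 CPM under continuous drug (1.22 ± 0.11, edgeR adjusted p = 2.27e-10). CDC6 was at 52.3, 47.9 and 50.2 CPM after rechallenge and 22.7, 24.8 and 25.9 CPM under continuous drug (1.03 ± 0.07, edgeR adjusted p = 1.36e-12). RRM2 was at 244, 218 and 232 CPM after rechallenge and 119, 125 and 125 CPM under continuous drug (0.91 ± 0.07, edgeR adjusted p = 5.11e-12). For these 3 genes the lowest rechallenged library was above the highest continuous one. CDC45 (1.18 ± 0.09), TK1 (1.01 ± 0.13), GINS2 (0.95 ± 0.13), TYMS at 172, 160.3 and 142 CPM against 79.6, 91.7 and 85.4 CPM under continuous drug (0.88 ± 0.08) and UHRF1 at 67.2, 62.2 and 56.03 CPM against 35.6, 33.2 and 40.2 CPM under continuous drug (0.77 ± 0.10) followed. CDC7 (0.61 ± 0.12), POLE2 (0.55 ± 0.13), MCM2 (0.45 ± 0.09), MCM6 (0.41 ± 0.07) and PCNA (0.37 ± 0.08) were higher by less. RPA1 (0.10 ± 0.06) and RPA2 (0.16 ± 0.08) did not pass the threshold, and the count was 37 without rechallenged replicate 1 as well. The fibroblast marker sum was 635 to 758 CPM after rechallenge and 1663 to 1749.8 CPM under continuous drug, and its part in the result was not tested.

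Compared with the first 7 days of drug, rechallenged cells had 30 of 39 genes higher, where 16.6% of all tested genes were higher, with a median log2 change of 0.39. GINS1 (0.66 ± 0.09), ORC6 (0.63 ± 0.11), CDC6 (0.61 ± 0.07) and PRIM1 (0.59 ± 0.12) led. TYMS (0.57), RRM2 (0.54), POLE2 (0.52), UHRF1 (0.49), CDC45 (0.49) and CDC25A (0.37) also rose on the log2 scale. MCM2 (-0.01 ± 0.09), MCM6 (-0.09 ± 0.07), PCNA (0.05 ± 0.08), CDC7 (0.28 ± 0.12) and GINS2 (0.31 ± 0.13) did not pass the threshold, although GINS2 did without rechallenged replicate 3 (0.40), with RLE factors (0.32), with DESeq2 (0.32) and with the compared groups alone (0.31), and CDC7 did without week 1 replicate 3 (0.38) or rechallenged replicate 2 (0.35). Without rechallenged replicate 1, 25 genes were higher. Rechallenged cells had a fibroblast marker sum of 635 to 758 CPM, against 254 to 265 CPM at week 1, and a melanoma marker sum of 478 to 599 CPM, against 837 to 904 CPM at week 1, and the part of these in the result was not tested.

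Whether the response to drug differed between the first and the second exposure was tested directly, as the log2 change of rechallenged over off-drug cells minus that of week 1 over untreated cells. No library was used in both. All 39 genes had a higher response to the second exposure, where 23.3% of all tested genes did, and the median difference was 1.69 on the log2 scale. POLE2 fell by 1.06 in the first exposure and rose by 1.41 in the second, a difference of 2.47 ± 0.20 (edgeR adjusted p = 5.24e-12). The difference was 2.36 ± 0.12 for TYMS, 2.33 ± 0.18 for PRIM1 and 2.28 ± 0.18 for GINS2 (edgeR adjusted p = 1.61e-16, 1.82e-12 and 5.29e-12). It was also large for CDC25A (2.10), CDC45 (2.08), MCM6 (2.001), UHRF1 (1.72), MCM2 (1.66), CDC6 (1.54) and CDC7 (1.35). It was smaller for RRM2 (0.90 ± 0.09) and PCNA (0.80 ± 0.12), neither past the threshold in the first exposure. RPA2 had the smallest, at 0.35 ± 0.12 (edgeR adjusted p = 0.0124), and fell in both exposures. It lost this call without the count filter (0.33, edgeR adjusted p = 0.0842), which left 38 of 39 genes, and the count was 39 without rechallenged replicate 1. The starting groups differed, since all 39 genes were lower off drug at week 2 than in untreated cells. They also differed in BRAF RNA, at 3232 ± 59.9 CPM off drug at week 2 and 895 ± 7.17 CPM in untreated cells (SD, n = 3 each). Melanoma markers summed to 721 to 730.1 CPM off drug at week 2 and to 2376 to 2492 CPM in untreated cells. The part of these differences in the result was not tested.

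**Figure D5:**
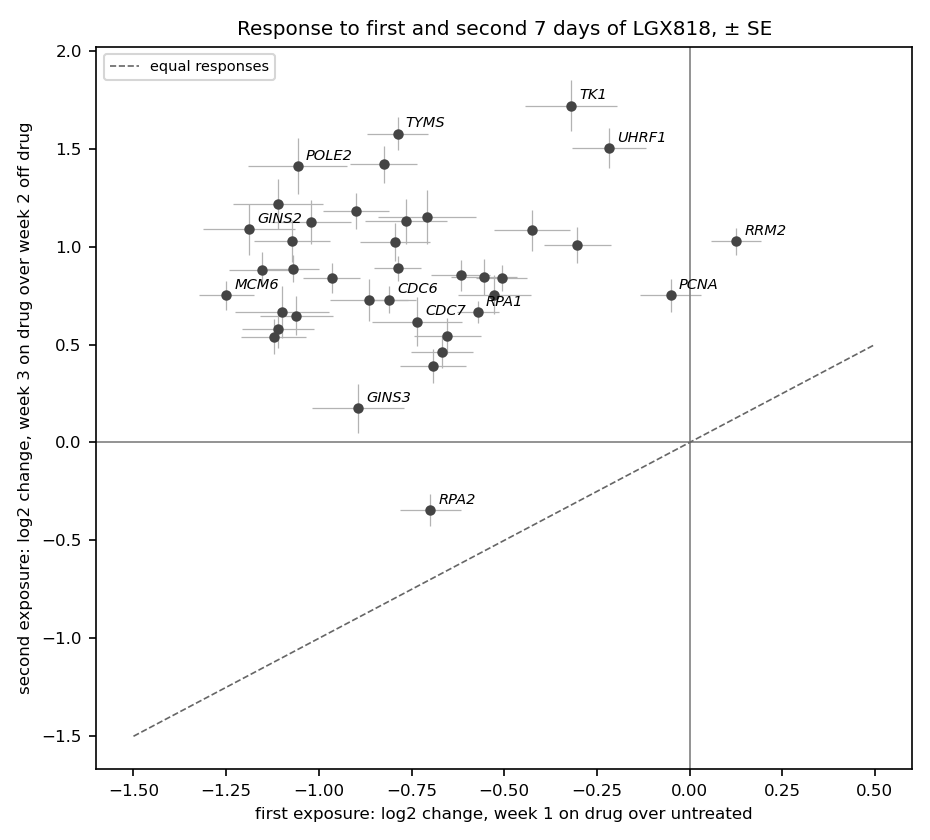
Log2 change of each gene in the second exposure (vertical axis, rechallenged week 3 over off drug at week 2) against the first exposure (horizontal axis, week 1 over untreated), with SE bars and the line of equal responses (dashed). All 39 points lie above the line, and RPA2 is the gene below 0 on the vertical axis.

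At week 4 the order of the arms was the reverse of that at week 2. Off-drug cells held more replication RNA than cells on continuous drug: 34 of 39 genes were higher off drug at week 4, where 26.1% of all tested genes were higher, and the median log2 change was 0.69. CDC25A was at 13.5, 12.5 and 13.6 CPM off drug and 3.23 and 3.91 CPM under continuous drug (1.89 ± 0.13, edgeR adjusted p = 2.53e-13). CDC6 was at 50.7, 49.2 and 49.5 CPM off drug and 17.3 and 16.8 CPM under continuous drug (1.54 ± 0.08, edgeR adjusted p = 7.05e-16). MCM10 was at 12.4, 10.9 and 12.2 CPM off drug and 4.65 and 4.87 CPM under continuous drug (1.32 ± 0.13, edgeR adjusted p = 6.81e-10). ORC1 was at 14.5, 11.3 and 13.9 CPM off drug and 5.297 and 5.66 CPM under continuous drug (1.27 ± 0.12, edgeR adjusted p = 2.18e-10). These 4 genes of licensing, firing and CDK2 activation were more than 2-fold higher off drug, and the groups did not overlap.

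CDC45 was at 22.1, 19.3 and 21.3 CPM off drug at week 4 (1.08 ± 0.11), RRM2 at 173, 169 and 181 CPM (1.07 ± 0.08), GINS2 at 12.6, 13.9 and 13.7 CPM (0.95 ± 0.15) and CDC7 at 12.3, 10.1 and 12.4 CPM (0.94 ± 0.14). TYMS at 115, 97.3 and 104 CPM (0.60 ± 0.09), POLE2 at 6.17, 6.08 and 6.67 CPM (0.60 ± 0.16), MCM2 at 24.97, 20.8 and 26.3 CPM (0.44 ± 0.10), MCM6 at 41.9, 39.5 and 46.6 CPM (0.35 ± 0.08) and PCNA at 123, 124 and 122 CPM (0.24 ± 0.09) were higher by less. By role the median ran from 1.20 for licensing and 1.17 for the regulators to 0.50 for the helicase ring and 0.27 for RPA. The genes that did not pass the threshold were RPA1 (-0.08 ± 0.06), TK1 (0.16 ± 0.14), UHRF1 at 39.05, 28.5 and 34.4 CPM (0.18 ± 0.11), POLD1 (0.23 ± 0.10) and RPA3 (0.27 ± 0.15). Continuous week 4 had 2 libraries, and MCM2 lost its call without its replicate 2 (0.25) and PCNA without either (0.27 and 0.22), whereas UHRF1 passed without off-drug replicate 2 (0.34) and POLD1 without that library (0.32) or continuous replicate 1 (0.33), with RLE factors (0.24) or with the replicate block (0.26). The fibroblast marker sum was 32.3 to 34.3 CPM off drug at week 4 and 2235 to 2476 CPM under continuous drug, and the melanoma marker sum was 1356 to 1677 CPM off drug and 423 to 444 CPM under continuous drug. BRAF RNA was higher off drug here too, and the part of these in the result was not tested.

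Within the intermittent arm many of the genes were lower after the second withdrawal. Of the 39, 25 were lower off drug at week 4 than after rechallenge at week 3, where 22.3% of all tested genes were lower, with a median log2 change of -0.32. TK1 (-0.97 ± 0.13), UHRF1 (-0.86 ± 0.10), CDT1 (-0.62 ± 0.13) and TYMS (-0.58 ± 0.08) fell most. CDC6 (-0.01 ± 0.07), CDC25A (-0.09 ± 0.10) and CDC7 (0.12 ± 0.12) did not pass the threshold, with CDC6 at 50.7, 49.2 and 49.5 CPM off drug and 52.3, 47.9 and 50.2 CPM after rechallenge. CDC45 (-0.41), MCM6 (-0.41), RRM2 (-0.40) and PCNA (-0.37) were lower, and POLE2 (-0.32 ± 0.13) passed the threshold without rechallenged replicate 2 (-0.36) or with the replicate block (-0.32). RPA2 was the 1 gene that rose, where 23.1% of all tested genes rose, to 34.6, 37.3 and 33.4 CPM off drug at week 4, against 26.4, 26.3 and 23.8 CPM after rechallenge (0.46 ± 0.08, edgeR adjusted p = 2.59e-05). Without rechallenged replicate 1 the calls of GINS2 (-0.41 with it, -0.30 without) and MCM2 (-0.25 with it, -0.20 without) were lost, and the count of lower genes was 19 without that library and 21 without both libraries that stood apart. MCM2 was also lost without off-drug replicate 2 (-0.14) or rechallenged replicate 3 (-0.23), without the count filter (-0.24) and with the compared groups alone (-0.24). The fibroblast marker sum was 32.3 to 34.3 CPM off drug at week 4 and 635 to 758 CPM after rechallenge, the melanoma marker sum was 1356 to 1677 CPM off drug and 478 to 599 CPM after rechallenge, and BRAF averaged 3404 ± 83.9 CPM off drug and 974 ± 163 CPM after rechallenge (SD, n = 3 each). Their part in the result was not tested.

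Cells off drug at week 4 had more replication RNA than cells off drug at week 2. These groups differed in time in culture and in a further round of drug, which cannot be told apart here. Of the 39 genes, 37 were higher off drug at week 4 than off drug at week 2, where 14.6% of all tested genes were higher, and the median log2 change was 0.58. POLE2 (1.10 ± 0.15, edgeR adjusted p = 7.28e-07), MCM10 (1.02 ± 0.11), PRIM1 (1.01 ± 0.13) and TYMS (0.99 ± 0.08) led. CDC25A (0.94), CDC45 (0.77), CDC7 (0.74), CDC6 (0.72), GINS2 (0.68), UHRF1 (0.64) and RRM2 (0.62) rose by at least 0.62 on the log2 scale. PCNA (0.38 ± 0.08), MCM6 (0.34 ± 0.08) and MCM2 (0.29 ± 0.09) rose by less, and MCM2 lost its call without off-drug week 4 replicate 3 (0.24). RPA2 (0.12 ± 0.08) and GINS3 (0.26 ± 0.13) did not pass the threshold. Off drug the fibroblast marker sum was 32.3 to 34.3 CPM at week 4 and 30.3 to 33.1 CPM at week 2, and the melanoma marker sum was 1356 to 1677 CPM at week 4 and 721 to 730.1 CPM at week 2, whose part in the result was not tested.

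The turn between the holidays was tested as the difference off drug minus continuous at week 4 minus the same difference at week 2. This comparison was added after the data were seen. It is built from the holiday differences given above, so it is not separate support for the turn. The difference was above 0 in 38 of 39 genes past the threshold, where 14.5% of all tested genes were, with a median of 1.499 on the log2 scale. CDC25A (2.66 ± 0.17), MCM10 (2.46 ± 0.17), ORC1 (2.14 ± 0.16) and CDC45 (2.11 ± 0.14) had the largest differences, with edgeR adjusted p of 4.26e-13, 2.92e-12, 5.63e-12 and 1.04e-12. POLE2 (2.11), CDC6 (2.09), RRM2 (2.08), GINS2 (2.0001) and TYMS (1.95) were close behind. UHRF1 (1.68), CDC7 (1.45), MCM6 (1.26), MCM2 (1.21) and PCNA (0.92) had smaller ones. RPA2 did not pass the threshold (0.25 ± 0.12, edgeR adjusted p = 0.132), and it did without continuous week 2 replicate 2 (0.34). The count was 38 without continuous week 2 replicate 3 as well. Summed over the 39 genes, off-drug cells had 1706 to 1847 CPM and continuous cells 1163 to 1181 CPM at week 4, and off-drug cells had 1202 to 1259 CPM and continuous cells 2162 to 2287 CPM at week 2.

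The withdrawal steps of the rounds were compared in the same way. The log2 change of off drug at week 4 over rechallenge minus that of off drug at week 2 over week 1 was above 0 past the threshold in 7 of 39 genes, where 7.6% of all tested genes were, with a median of 0.16. The largest were POLE2 (0.58 ± 0.20, edgeR adjusted p = 0.0419), CDC25A (0.57 ± 0.15, edgeR adjusted p = 0.00658), MCM10 (0.53 ± 0.16, edgeR adjusted p = 0.0163) and MCM3 (0.45 ± 0.10, edgeR adjusted p = 0.00135). MCM6 (0.42 ± 0.11), TYMS (0.42 ± 0.12) and RPA1 (0.29 ± 0.08) passed too. CDC6 (0.11 ± 0.10), RRM2 (0.08 ± 0.09), UHRF1 (0.14 ± 0.14), CDC45 (0.28 ± 0.13), MCM2 (0.30 ± 0.13), GINS2 (0.36 ± 0.18), PCNA (0.33 ± 0.12) and CDC7 (0.46 ± 0.17) did not pass. The count was 11 without rechallenged replicate 1 and 13 without both libraries that stood apart, and POLE2 lost its call without week 1 replicate 1 or 3, off-drug week 2 replicate 1, rechallenged replicate 2 or off-drug week 4 replicate 3 (0.47 to 0.60). MCM10 lost its call without off-drug week 2 replicate 1 (0.46). Without the count filter POLE2 (0.61, edgeR adjusted p = 0.0722) and RPA1 (0.32, edgeR adjusted p = 0.0942) lost theirs, PCNA and TK1 passed, and 5 of the 7 genes were called in both fits. CDC7 and PCNA each passed when any 1 of 4 libraries was left out (0.53 to 0.57 for CDC7 and 0.36 to 0.42 for PCNA), PCNA also with DESeq2 (0.31) and with the compared groups alone (0.34), and MCM2 without off-drug week 4 replicate 2 (0.41).

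A further 46 replication genes outside the set, among them the other ORC subunits, polymerase accessory subunits, chromatin assembly factors, E2F factors and the S phase cyclins, were read beside it. At 20 hours 42 of 46 fell and 1 rose, where 25.2% of all tested genes fell and 28.4% rose (median log2 change -1.64), the riser being SAMHD1 (0.39 ± 0.12), with the largest falls for the E2F gene E2F2 (-5.51 ± 0.20) and the histone chaperone gene ASF1B (-5.48 ± 0.17). E2F1 stood at 0.878, 1.34 and 1.15 CPM at 20 hours, against 26.9, 30.3 and 25.8 CPM in untreated cells (-4.62 ± 0.15, edgeR adjusted p = 8.7e-22). The S phase cyclin CCNA2 stood at 5.86, 6.89 and 6.05 CPM at 20 hours, against 58.9, 62.6 and 62.3 CPM in untreated cells (-3.29 ± 0.11), and CCNE2, whose exons overlap INTS8 on the opposite strand by 37%, fell by 4.21. CCNE1, the other E cyclin, fell by 0.73 (edgeR adjusted p = 2.52e-05). Between BRAF-V600E and vector cells 6 of the 46 were higher and 1 lower, where 7.04% of all tested genes were higher and 9.92% lower, led by CDK2 (0.65 ± 0.06) and SAMHD1 (-0.69 ± 0.12). At week 1, 38 were lower than in untreated cells and 4 higher, where 26.7% of all tested genes were lower and 27.5% higher (median -0.62). At continuous week 4, 41 were lower than in untreated cells and 5 higher, where 26% of all tested genes were lower and 29.3% higher (median -1.10). The largest falls were those of CDK2 at week 1 (-2.72 ± 0.07) and week 4 (-3.18 ± 0.08), E2F2 at week 1 (-1.496 ± 0.13) and CCNA2 at week 4 (-2.20 ± 0.11), and the largest rises those of POLE4 (0.70 ± 0.15) and ORC3 (0.51 ± 0.08) at week 1 and of SAMHD1 (1.25 ± 0.12) and RRM2B (0.61 ± 0.10) at week 4. CDK2 shares 89 bases of its exons with the melanosome gene PMEL on the opposite strand, so its count is uncertain where counting ignored strand. At 20 hours, where CDK2 did not rise past the threshold, the log2 change of PMEL was 2.07 against untreated cells. It was -2.85 at week 1 and -5.43 at continuous week 4, each against untreated cells. Over continuous drug it was 3.81 off drug at week 2 and 3.33 off drug at week 4. After rechallenge it was -2.09 against off drug at week 2. PMEL did not pass the threshold between BRAF-V600E and vector cells (0.19), and its part in the CDK2 changes was not tested.

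Off drug at week 2, 36 of the 46 were lower than at continuous week 2 and 3 higher, where 27.9% of all tested genes were lower and 27.3% higher (median -0.71). CCNA2 was at 12.99, 11.5 and 14.7 CPM off drug and 41.9, 38.1 and 40.8 CPM at continuous week 2 (-1.62 ± 0.10, edgeR adjusted p = 4.11e-15), and the chromatin remodeller HELLS also fell (-1.47 ± 0.13). E2F7, which codes for a repressor of E2F targets, rose to 127, 125 and 146 CPM off drug at week 2, against 73.9, 76.6 and 54.02 CPM at continuous week 2 (0.96 ± 0.10, edgeR adjusted p = 3.27e-09). It was also higher off drug than in untreated cells, at 31.6, 24.6 and 31.5 CPM (2.19 ± 0.11, edgeR adjusted p = 5.04e-17). CDK2 rose as well (1.10 ± 0.07). CCNE1 did not pass the threshold (0.19 ± 0.13) except without the libraries that stood apart (0.31), whereas E2F1 (-0.93 ± 0.11) and CCNE2 (-1.07 ± 0.13) were lower.

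After rechallenge, 34 of the 46 were higher than off drug and 4 lower, where 27.8% of all tested genes were higher and 28.5% lower (median 0.73), with CCNA2 (1.55 ± 0.10), HELLS (1.58 ± 0.13), CCNE2 (1.12 ± 0.13) and E2F1 (1.07 ± 0.11) higher and E2F7 (-0.96 ± 0.10) and CDK2 (-0.87 ± 0.07) lower. CCNE1 did not pass the threshold (0.15 ± 0.13). The response to the second exposure was above that to the first in 39 of the 46 and below it in 2, E2F7 (-1.31 ± 0.15) and the p53-induced reductase gene RRM2B (-0.42 ± 0.12), where it was above in 23.3% and below in 25% of all tested genes. At week 4, 32 were higher off drug than under continuous drug and 2 lower, where 26.1% of all tested genes were higher and 25.1% lower (median 0.55), with E2F7 at 137, 128 and 140.3 CPM off drug and 35.1 and 37.1 CPM under continuous drug (1.90 ± 0.12, edgeR adjusted p = 5.92e-14). CDK2 (2.73 ± 0.08) was higher off drug and ORC3 (-0.32 ± 0.08) lower. CCNE1 was higher there (1.23 ± 0.15, edgeR adjusted p = 4.42e-08), as were E2F1 (0.98 ± 0.12), CCNE2 (0.86 ± 0.15) and CCNA2 (0.51 ± 0.11). SAMHD1, which breaks down deoxynucleotides, was lower (-1.17 ± 0.12, edgeR adjusted p = 2.47e-09), at 6.47, 7.07 and 6.404 CPM off drug and 15.1 and 14.7 CPM under continuous drug. E2F7 was thus higher off drug than under continuous drug at both weeks.

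RPA2 and RRM2 had levels that departed from the course of most genes. RPA2 was higher off drug than on drug in both rounds, at 32.4 ± 2.12 and 35.1 ± 1.98 CPM off drug at weeks 2 and 4, against 23.8 ± 1.66 CPM at week 1 and 25.5 ± 1.47 CPM after rechallenge (SD, n = 3 each). Its partners RPA1 and RPA3 were lower off drug at week 2 than at continuous week 2. They stood at 62.1 ± 3.55 and 9.44 ± 1.33 CPM off drug, against 98.6 ± 1.69 and 13.9 ± 1.53 CPM at continuous week 2. RRM2 had the highest level relative to untreated cells of all 39 genes at week 1 (109%), continuous weeks 2 (158%) and 3 (84.5%), after rechallenge (159%) and off drug at week 4 (120.0%), while RPA2 had it off drug at week 2 (83.7%) and RPA1 at continuous week 4 (67.5%). MCM6 kept the lowest share of its untreated level at week 1 (42.0%), continuous week 2 (44.2%), off drug at week 2 (23.6%), after rechallenge (39.6%) and off drug at week 4 (29.8%), and CDC25A did so at continuous weeks 3 (26.5%) and 4 (15.7%).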

How the data were processed

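Polyadenylated RNA of 29 WM239A libraries in 10 groups was sequenced from NuGEN Universal Plus mRNA-seq libraries, per the labels' protocols. The deposited table holds raw counts per gene. Trimmomatic 0.32, HISAT2 2.0.3, SAMtools 0.1.18, HTSeq 0.6.1 and GRCh38 are named in the submitters' processing notes, whereas the strand setting and annotation release are not given in the sources used here. The columns of the rechallenged libraries are named as off drug, and were assigned by week, schedule and replicate to samples labelled on drug.

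Counts were fitted in 1 model of all 29 libraries with edgeR 4.0.16 (R 4.3.3), using filterByExpr, TMM factors, glmQLFit and glmQLFTest, with Benjamini-Hochberg adjustment over 20494 genes and a threshold of 0.05. Tested genes held at least 99.9452% of each library's counts, and the common biological coefficient of variation was 0.0942. CPM were computed with the TMM effective library sizes, the SE is the log2 change over the root of F, and 95% intervals used the t quantile of the fit's degrees of freedom. RPKM used the union of exons in GENCODE 29, which matched 57055 identifiers and all 39 genes. Of the 20 comparisons, 4 were added after the data were seen. The members and gene lists were chosen with earlier results of these data known.

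The genes named were 12 followed throughout (CDC6, MCM2, MCM6, CDC45, GINS2, PCNA, POLE2, RRM2, TYMS, CDC25A, CDC7 and UHRF1), the 4 largest rises and falls past the threshold in each comparison, members against the majority, members not past the threshold where 6 or fewer, and of the other list the 2 largest rises and falls and CCNE1, CCNE2, E2F1 and CCNA2. Alternatives were DESeq2 1.42.0, its size factors in edgeR (RLE), no count filter, the compared groups alone, a replicate block, each library left out in turn and, chosen after the data were seen, omission of both libraries that stood apart (chi-square per gene above 20 against both others of the group). Scripts were tested on simulated data.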

Additional observations from a re-analysis of the deposited data

Results flagged for a closer look

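Responses that differed between the rounds of the experiment were tested as interaction terms in edgeR's quasi-likelihood model, with Benjamini-Hochberg adjustment. The second exposure to drug (rechallenged over off-drug cells at week 2) gave a higher log2 change than the first (week 1 over untreated cells) in 39 of 39 genes, where 23.3% of all tested genes did. The difference was 2.47 for POLE2, 2.36 for TYMS, 2.33 for PRIM1 and 2.28 for GINS2, the 4 largest. The difference of off-drug and continuous cells was higher at week 4 than at week 2 in 38 genes, where 14.5% of all tested genes were, with 2.66 for CDC25A, 2.46 for MCM10, 2.14 for ORC1 and 2.11 for CDC45 on the log2 scale. This comparison of the holidays was added after the data were seen. The second withdrawal gave a higher log2 change than the first in 7 of 39 genes, where 7.6% of all tested genes did, with 0.58 for POLE2, 0.57 for CDC25A, 0.53 for MCM10 and 0.45 for MCM3.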

How the results depend on the processing

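The number of genes higher in BRAF-V600E than in vector cells was 4, and became 9 (and 1 lower) when both groups were fitted alone and 1 to 4 with single libraries left out. For the difference between the withdrawals the count was 7, and became 13 without both libraries that stood apart and 5 to 11 with single libraries left out. The counts of the other 18 comparisons stayed within 1.5 times their value under every alternative run, and no log2 change past the threshold reversed its sign. Same-numbered replicates did not deviate together: their correlations lay between -0.214 and 0.112 over 61 pairs, with 1 above 0.1, and 85 of 252 best matches were to the own number. A fit with the replicate block called 4 genes for BRAF-V600E over vector and 39 at 20 hours, against 4 and 39 without it, and 29 at continuous week 2 over week 1, against 30. Continuous week 4 had 2 libraries, and leaving out 1 of them assumes that the lone library varies like those of other groups. Counts were lowest for MCM10 at 20 hours, with 31 over 3 libraries. Cell cycle phase was not measured.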
